A study of Mus musculus with 49 samples.

Results

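The Zscan4 family is a cluster of near-identical genes on mouse chromosome 7, and its transcripts were followed here in single late 2-cell embryos from which TBP or FOXJ3 had been depleted (loss of function, LOF). Members were all genes whose symbol starts with Zscan4 and goes on with a letter or with ps, the pseudogene mark, in the gencode annotation of GRCm38. This gave 9 of the 54838 genes in the tables: Zscan4a, Zscan4b, Zscan4c, Zscan4d, Zscan4e, Zscan4f, Zscan4-ps1, Zscan4-ps2 and Zscan4-ps3. Embryos of F1 (C57BL/6JxCBA/H) mice received an antibody as zygotes and mCherry-Trim21 mRNA 4 h later, so that Trim21 would degrade the protein bound by the antibody (Trim-Away), and were lysed 48 h after hCG. The 4 groups were TBP LOF (antibody to TBP, 9 embryos), TBP CONTROL (mouse IgG, 10 embryos), FOXJ3 LOF (antibody to FOXJ3, 17 embryos) and FOXJ3 CONTROL (rabbit IgG, 13 embryos), and all of them carried the mCherry-Trim21 construct. FOXJ3 embryos came in 2 library batches, and the labels give no collection or batch for single TBP embryos. After quality control 47 of 49 embryos remained, 9, 9, 16 and 13 in this order, with 1103569 to 5434808 counted reads each.

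Zscan4 proteins carry a SCAN domain and zinc fingers and bind DNA. In the mouse the family is known for a burst of transcription at the late 2-cell stage, during the activation of the embryo's own genome, and for rare, short pulses in embryonic stem cells, where it has been linked to telomere lengthening and genome stability. DUX, DPPA2 and DPPA4 are known activators of the locus. TBP is the subunit of TFIID that binds the TATA box of core promoters, and FOXJ3 is a forkhead transcription factor.

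The copies lie within 819.9 kb of chromosome 7, from 10794242 to 11614112 in GRCm38. In order along the chromosome they are Zscan4a (10794242 to 10799057, reverse strand), Zscan4b (10900740 to 10905050, reverse), Zscan4c (11005745 to 11010547, forward), Zscan4-ps1 (11065139 to 11069691, reverse), Zscan4d (11161374 to 11166159, reverse), Zscan4e (11306378 to 11310682, reverse), Zscan4f (11397915 to 11402318, forward), Zscan4-ps2 (11514310 to 11519111, forward) and Zscan4-ps3 (11609308 to 11614112, forward). Symbols and gene types did not match: the annotation lists Zscan4a as an unprocessed pseudogene, and the other 8, all with a ps symbol included, as protein-coding.

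RefSeq promoters (GRCm38.p6) were at hand for 4 of the 9 copies, Zscan4b, Zscan4c, Zscan4d and Zscan4f. They are shown because TBP binds the TATA box, and each of the 4 held the letters TATAAA once, on the strand of the gene. The 60 bases around it follow from 5′ to 3′ on the strand of the gene, with TATAAA in capitals. They are chr7:10905049-10905108 (reverse) for Zscan4b, chr7:11005664-11005723 (forward) for Zscan4c, chr7:11166181-11166240 (reverse) for Zscan4d and chr7:11397857-11397916 (forward) for Zscan4f.
Zscan4b: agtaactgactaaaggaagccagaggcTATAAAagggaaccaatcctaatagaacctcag
Zscan4c: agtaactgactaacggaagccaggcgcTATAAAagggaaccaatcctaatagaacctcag
Zscan4d: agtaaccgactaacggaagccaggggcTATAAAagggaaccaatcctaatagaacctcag
Zscan4f: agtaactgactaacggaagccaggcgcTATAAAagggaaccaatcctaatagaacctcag
In these windows Zscan4c and Zscan4f were identical in all 60 bases, Zscan4d differed from both in 2, and Zscan4b from each of the others in 3. TATAAA began 31 bases before the annotated start of Zscan4b and of Zscan4f, 54 before that of Zscan4c and 65 before that of Zscan4d, so that the annotated starts differ while the box and its flanks are shared. The 250 bases before the start of Zscan4c, a promoter used in reporters of the family's activity, were the following (chr7:11005495-11005744, forward strand, TATAAA in capitals).
Zscan4c: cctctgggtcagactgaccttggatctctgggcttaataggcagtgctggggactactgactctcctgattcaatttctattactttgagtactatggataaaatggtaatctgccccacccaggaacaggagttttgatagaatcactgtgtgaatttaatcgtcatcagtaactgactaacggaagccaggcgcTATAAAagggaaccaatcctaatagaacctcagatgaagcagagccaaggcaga
Of 32851 RefSeq promoters of 300 bases each (250 before to 50 after the start), 13.6% held TATAAA on either strand. Searched the same way, the forkhead letters TGTTTAC (3.65% of all promoters), the OBOX and OTX letters TAATCC (7.06%) and the DUX motif (0.0335%) had no match in the 4 Zscan4 promoters. A match or its absence describes these windows only.

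Because the copies are so alike, reads could be assigned to the wrong one. Over the longest transcript of each copy, pairs of copies were 94.1% to 99.3% identical, with Zscan4c and Zscan4-ps2 the closest pair. Of all stretches of 150 bases, 87.4% were found in no other copy for Zscan4-ps1, 87.0% for Zscan4d and 74.9% for Zscan4a, but only 13.8% for Zscan4f and 24.0% for Zscan4e. These shares cover the whole transcript. Only reads of transcript 5′ ends were counted, and the unique share at that end was not measured. The sources used here do not say how the authors' counting shared out reads that fit several copies. The sum over the 9 copies does not depend on how the counted reads are divided among them and is therefore given first. If reads that fit several copies were dropped, the sum and the order of copies would follow the unique share of each at its 5′ end, which was not tested. Values of single copies are uncertain where they share most of their sequence.

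Reads of the family were found in every embryo. Over the 47 embryos its 9 copies held 6629 reads, from 7 to 828 per embryo, and in CPM (reads per 1e6 counted reads) the sum ran from 5.67 to 374, a 66.0-fold range. In TBP CONTROL embryos the family sum had a lowest value of 5.67 CPM, a median of 43.4 and a highest value of 125. In TBP LOF embryos the corresponding values were 15.1, 43.1 and 111 CPM. In CPM, a share of all counted reads, the medians of these 2 groups were therefore close and their ranges overlapped almost entirely. FOXJ3 CONTROL embryos had the highest level, with 21.8, 74.0 and 374 CPM, and FOXJ3 LOF embryos had 22.2, 46.0 and 117 CPM. The order of medians was FOXJ3 CONTROL, FOXJ3 LOF, TBP CONTROL and TBP LOF, and each neighbouring pair of ranges overlapped. Levels of the 2 experiments were not tested against each other, since antibody, IgG and processing differed.

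**Figure D1:**
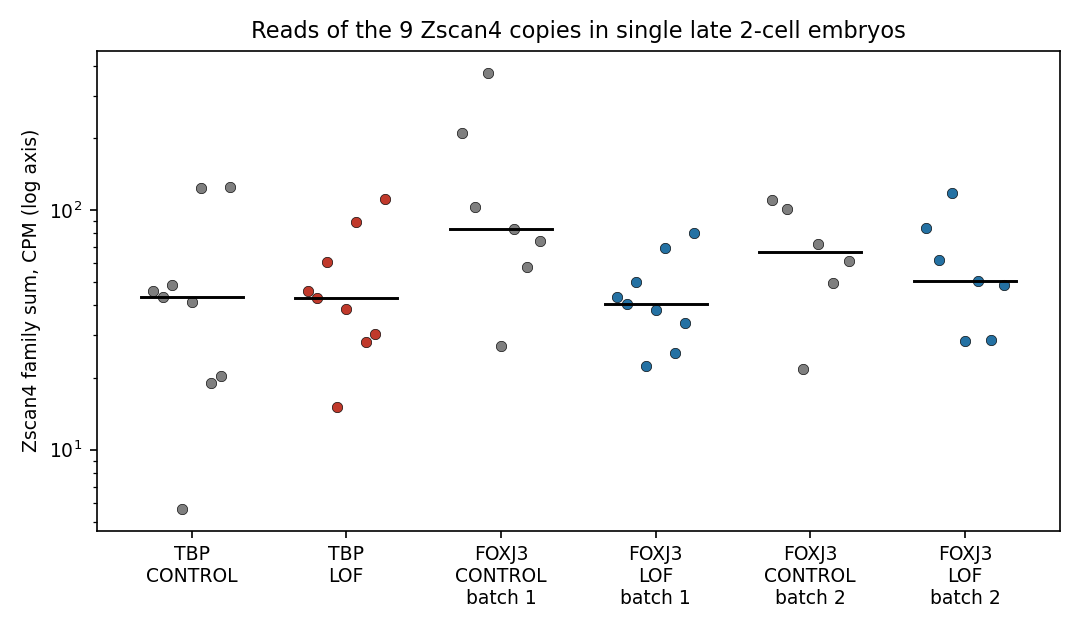
Summed reads of the 9 Zscan4 copies in each embryo, in CPM on a log axis, by group and, for FOXJ3, library batch. Each point is an embryo and the bar is the median. The 2 highest embryos, at 374 and 209.5 CPM, are both FOXJ3 CONTROL embryos of batch 1, while the lowest, at 5.67 CPM, is a TBP CONTROL embryo.

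Embryos of the same group differed widely. The coefficient of variation of the family sum in CPM was 0.82 in TBP CONTROL, 0.60 in TBP LOF, 0.91 in FOXJ3 CONTROL and 0.50 in FOXJ3 LOF embryos. Among genes with a mean within a factor of 2 of the family's, the median coefficient was 0.31, 0.40, 0.39 and 0.33, and 99.0%, 87.2%, 99.4% and 90.4% of those genes varied less, a description without a test. Within groups, the log2 level of the family had a correlation of -0.08 with the number of counted reads over 47 embryos, and of 0.45 with the level of the mCherry-Trim21 construct. It was -0.31 with the share of ERCC spike-in reads, -0.13 with the mitochondrial share and 0.25 with the share of transposable element reads. Whether the construct had a part in these levels was not tested beyond the fits that carry it as a covariate, given below. A lower count in an embryo cannot tell less RNA in both cells from transcription in fewer cells.

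Most of the reads were assigned to 4 copies. Zscan4d held 23.4% of the family's reads over the 47 embryos, Zscan4f 23.1%, Zscan4a 19.7% and Zscan4c 12.7%. The pseudogene-named copies followed with 7.23% for Zscan4-ps3, 7.04% for Zscan4-ps2 and 4.22% for Zscan4-ps1. Zscan4e (1.58%) and Zscan4b (1.01%) were hardly counted, with 0 reads in 17 and 28 of 47 embryos. In mean CPM, Zscan4d (15.5) and Zscan4f (15.3) were close, ahead of Zscan4a (13.2) and Zscan4c (8.88), and Zscan4b had the lowest level (0.66). The order of the first 3 changed with the group: in FOXJ3 LOF embryos it was Zscan4a (13.2), Zscan4d (12.9) and Zscan4f (9.96). Only reads of transcript 5′ ends were counted, so that levels were not divided by transcript length. The leading copy changed between embryos: Zscan4d had the most reads in 19 embryos, Zscan4a in 14, Zscan4f in 12 and Zscan4c in 2.

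The copies varied together across embryos. After the mean of each group and batch was taken from the log2(CPM + 1) values, 35 of 36 pairs of copies had a positive Pearson r over the 47 embryos, with a median of 0.49 and a highest value of 0.70 between Zscan4c and Zscan4d. Each copy against the sum of the others had r between 0.49 (Zscan4e) and 0.78 (Zscan4a), except Zscan4b with 0.07. Since the copies of an embryo share a library and may share reads, these values are descriptions.

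**Figure D2:**
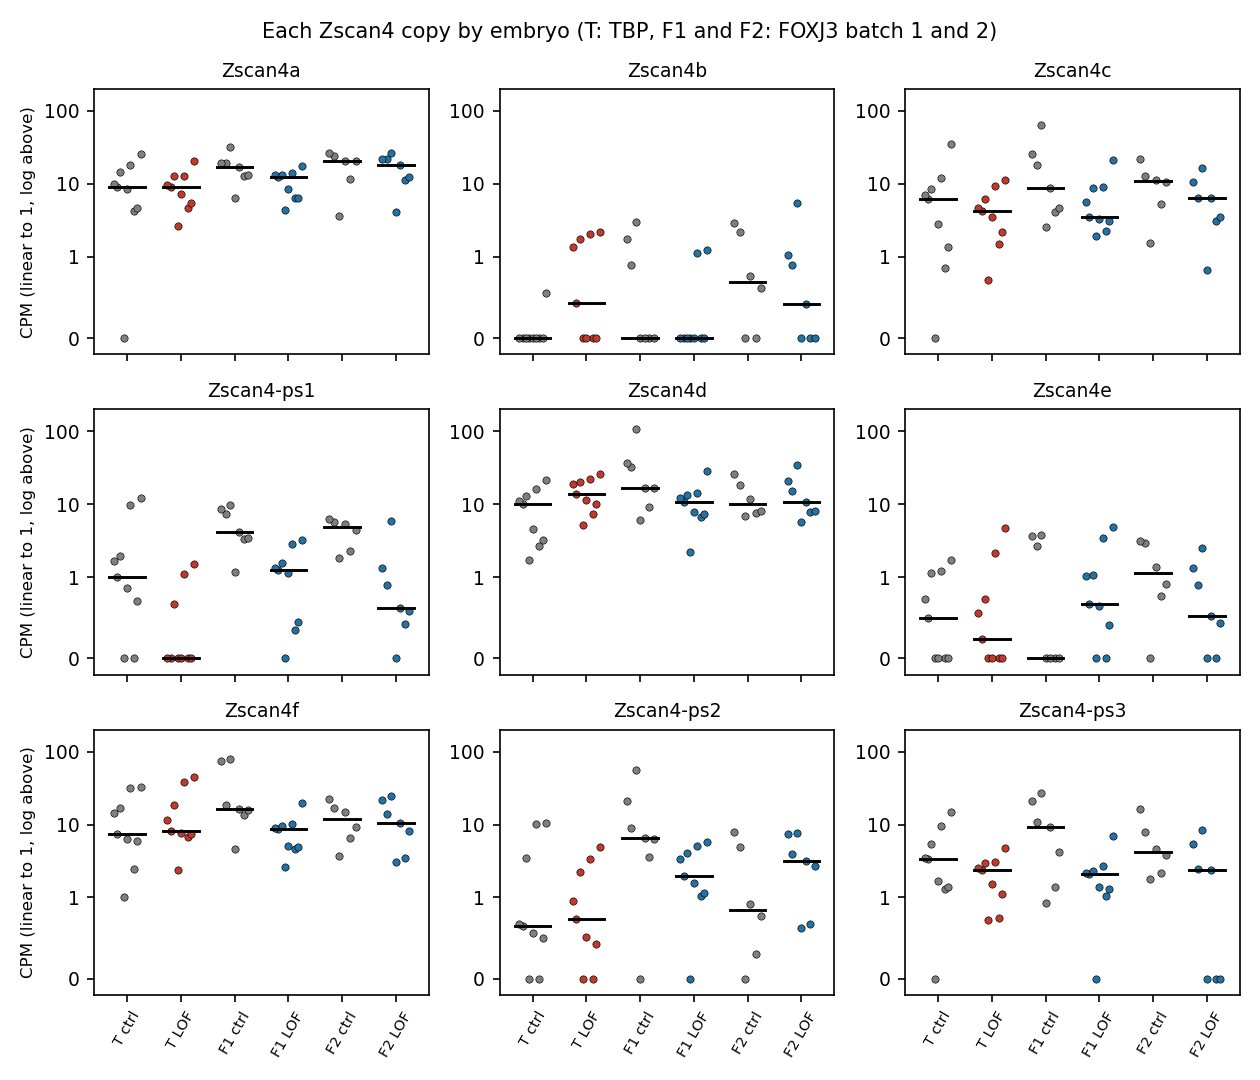
Each of the 9 copies in each embryo, in CPM on an axis that is linear to 1 and logarithmic above, with the group median as a bar (T, TBP; F1 and F2, FOXJ3 batches 1 and 2; ctrl, CONTROL). Zscan4-ps1 has 0 reads in 6 of 9 TBP LOF embryos, and Zscan4b and Zscan4e lie at or near 0 in most embryos.

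The targets of the antibodies are proteins, and their mRNA gives no check of the depletion. Tbp mRNA fell by 2.14 on the log2 scale in TBP LOF embryos (adjusted p = 5.26e-06), and Foxj3 mRNA had 0.28 in FOXJ3 LOF embryos (adjusted p = 0.861), both in edgeR. To ask whether the family depended on TBP, TBP LOF embryos were compared with CONTROL embryos injected with mouse IgG. The family as a whole did not pass the test. Scaled to the ERCC spike-in RNA added with the lysis buffer, which sets counts per embryo and not per read, the family sum had 68.8 normalised counts at the median in LOF embryos (15.2 to 262) and 114 in CONTROL embryos (12.6 to 278), and 7 of the 9 LOF embryos were under the median CONTROL embryo. The groups overlapped over nearly the whole range. The log2 fold change (LOF over CONTROL) was -0.46 (SE 0.40, 95% interval -1.25 to 0.34, adjusted p = 0.426 in edgeR's quasi-likelihood test). On the same scale the median of all 18447 genes tested was -0.70. The sign of the family sum depends on the scaling: with TMM, which sets the bulk of genes near 0 (their median was 0.13), the family sum had 0.16 (SE 0.38, adjusted p = 0.792).

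Among single copies, 2 of 9 passed the threshold upon TBP LOF, both lower, while 31.2% of all genes tested were called, 29.8% lower (5497) and 1.4% higher (258). With TMM the split of all genes was about even, 2382 lower and 2437 higher. In that fit 1 copy was called lower (Zscan4-ps1) and 1 higher (Zscan4b, with few reads). Both of these calls are descriptions, for reasons given below. At an unadjusted p under 0.05, 39.1% of all genes were called and 36.4% were called lower, as were 4 and 3 of the 9 copies, and 73% of all genes had a log2 fold change below 0, as had 6 of the 9 copies. The called copies were Zscan4-ps1 and Zscan4-ps3. The Zscan4-ps1 reads were 0 in 6 of 9 LOF embryos, where a count of 0 allows up to 0.72 to 2.32 CPM depending on depth (3 reads, counting error only), and 1, 2 and 3 reads in the others. In CONTROL embryos Zscan4-ps1 had between 0 and 66 reads with a median of 2, and 0 reads in 2 of 9. The CONTROL median of 1.01 CPM was itself near the level of a few reads, so that in a single embryo a lower level was often not detectable at this depth. In normalised counts its mean was 0.61 ± 0.96 (SD, n = 9) in LOF and 6.64 ± 8.90 (SD, n = 9) in CONTROL embryos, and 5 CONTROL embryos lay above the highest LOF embryo. The log2 fold change of Zscan4-ps1 was -3.43 (SE 0.89), at an adjusted p of 0.00172. Zscan4-ps1 had a read in 3 of 9 LOF and 7 of 9 CONTROL embryos. It thus reached the share of embryos with a read needed for a test mostly through CONTROL embryos, where it is high. Its call and its place among the called copies are therefore descriptions, as are its calls in the other TBP fits. All 9 of the LOF embryos were under the median CONTROL embryo in normalised counts and 7 of 9 in CPM. The change stayed past the threshold with TMM (-2.77, adjusted p = 0.0224). Of its 95 CONTROL reads, 66 came from embryo 9 and 16 from embryo 2. Without CONTROL embryo 9 the change was -2.84 (adjusted p = 0.0164), and without LOF embryo 10 it was -4.12. All 18 fits that each left out 1 embryo passed the threshold. Pooled over embryos, Zscan4-ps1 took 7.22% of the family's reads in CONTROL embryos, 4.52% without embryo 9, and 0.76% in LOF embryos. The median share per embryo was 3.90% and 0%.

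Zscan4-ps3 was weaker and depended on single embryos. Its reads ran from 1 to 7 in LOF and from 0 to 80 in CONTROL embryos, and in normalised counts 8 of the 9 LOF embryos were under the median CONTROL embryo, while 3 CONTROL embryos were above the highest LOF embryo. The log2 fold change was -1.57 (SE 0.63, adjusted p = 0.048). It was no longer past the threshold with TMM (-0.88, adjusted p = 0.277), nor in 11 of 18 fits that each left out 1 embryo, with the weakest value, -1.18, without CONTROL embryo 9. Zscan4-ps2 had -1.50 (SE 0.77, adjusted p = 0.141). Of the copies with letters, Zscan4c was the lowest with -1.24 (95% interval -2.42 to -0.07, adjusted p = 0.104). It was -1.67 and passed without LOF embryo 8 (adjusted p = 0.0290), and was -0.51 without CONTROL embryo 2 (adjusted p = 0.583).

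The copies with the most reads did not pass the test. Zscan4d had 7 to 44 reads in LOF embryos and 2 to 116 in CONTROL embryos, and its interval (-0.71 to 1.02 on the log2 scale) lies on both sides of 0. With TMM the log2 fold change of Zscan4d was 0.88 (SE 0.39, adjusted p = 0.0954) in place of 0.15. Zscan4d took 30.9% of the family's reads in LOF and 17.9% in CONTROL embryos. For Zscan4f the interval was -1.10 to 0.84 and for Zscan4a -1.61 to 0.28. Zscan4e had 0.26 (SE 1.02, adjusted p = 0.889). Zscan4b, with Zscan4d and Zscan4e 1 of the 3 copies above 0, had 13 reads in 5 of 9 LOF embryos and 3 reads in 1 of 9 CONTROL embryos. Per counted read this is a ratio of 4.84 (exact 95% interval 1.33 to 26.5, counting error only), and its log2 fold change of 2.17 did not pass (adjusted p = 0.121) but did with TMM (2.59, adjusted p = 0.0467). All 3 CONTROL reads came from embryo 9, without which the log2 fold change of Zscan4b was 3.67. With spike-in scaling, 1 of 18 fits that each left out 1 embryo passed (adjusted p = 0.0245 in edgeR). Zscan4b reached the share of embryos with a read needed for a test mostly through LOF embryos, where it is high. Its calls with TMM and with 1 embryo left out are therefore descriptions. The median over the 9 copies was -0.66 with spike-in scaling and 0.02 with TMM, beside -0.70 and 0.13 for all genes.

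**Figure D3:**
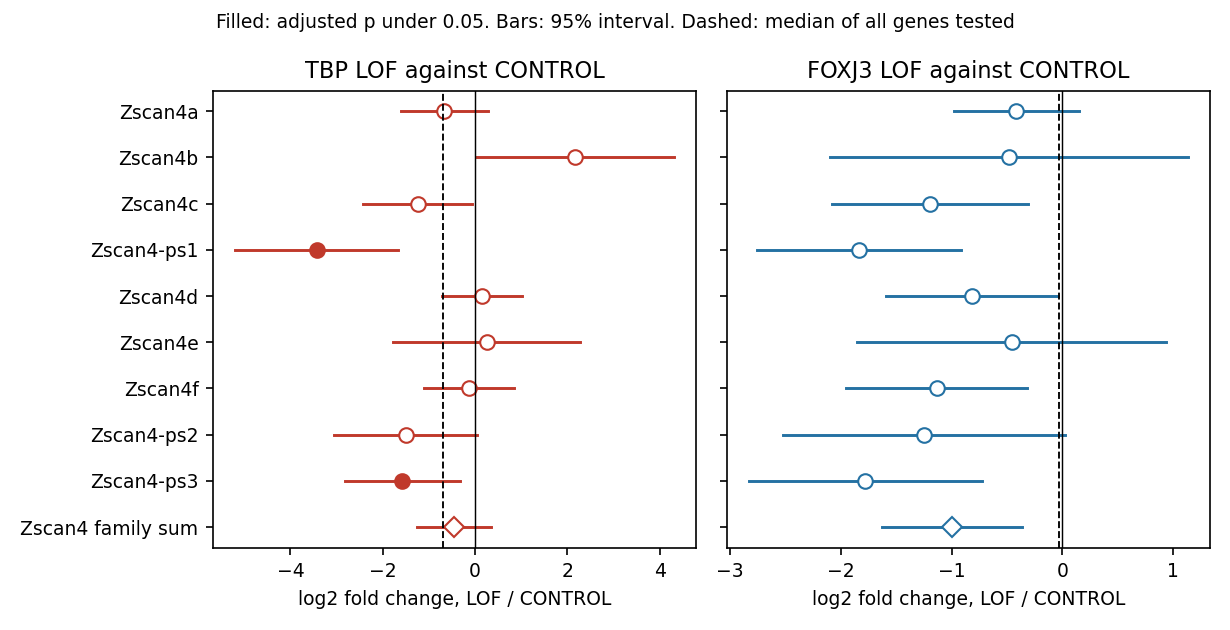
Log2 fold change of each Zscan4 copy and of the family sum, LOF over CONTROL, with the 95% interval, for TBP (left) and FOXJ3 (right, on its own axis range). Filled points passed an adjusted p of 0.05, and the dashed line is the median of all genes tested, at -0.70 and -0.03. Zscan4-ps1 and Zscan4-ps3 are filled on the left, and all 9 points lie below 0 on the right.

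In the FOXJ3 experiment the embryos were compared with rabbit IgG controls, scaled by TMM and with library batch as a covariate. All 9 copies had a log2 fold change below 0, none of them past the adjusted threshold. The family sum had 94.9 normalised counts at the median in LOF embryos (52.5 to 204) and 158 in CONTROL embryos (45.0 to 906). Of the 16 LOF embryos, 13 were under the median CONTROL embryo, and 5 CONTROL embryos lay above the highest LOF embryo. The log2 fold change was -0.99 (SE 0.31, 95% interval -1.63 to -0.36, unadjusted p = 0.00285, adjusted p = 0.631 in edgeR's quasi-likelihood test over all rows). No copy was called, with edgeR or with DESeq2, and 0.0107% of all genes tested were (2 of 18626). At an unadjusted p under 0.05, 5 of 9 copies lay below 0 in edgeR, and 5 in DESeq2, against 3.4% of all genes lower and 5.69% in either direction in edgeR. These copies may share reads and are not 5 separate results. The median over the 9 copies was -1.13, beside -0.03 for all genes.

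The smallest unadjusted p among the copies belonged to Zscan4-ps1, as in the TBP experiment. It had 0 to 11 reads in LOF embryos (median 2) and 2 to 21 in CONTROL embryos (median 9), and 9 of 16 LOF embryos lay below the lowest CONTROL embryo in normalised counts. Its mean was 2.83 ± 2.86 normalised counts (SD, n = 16) in LOF and 10.2 ± 5.82 (SD, n = 13) in CONTROL embryos. The log2 fold change was -1.83 (SE 0.46, adjusted p = 0.340) in edgeR and -1.89 (SE 0.44, adjusted p = 0.0558) in DESeq2, the latter just over the threshold. Of the 16 LOF embryos, 15 were under the median CONTROL embryo. Zscan4-ps3 followed with -1.78 (SE 0.52, adjusted p = 0.5265). It had 0 to 18 reads in LOF embryos and 2 to 60 in CONTROL embryos, and 13 of the 16 LOF embryos were under the median CONTROL embryo. Of the copies with many reads, Zscan4f had -1.13 (SE 0.40, adjusted p = 0.748), Zscan4d -0.81 (SE 0.38, adjusted p = 0.861) and Zscan4a -0.42 (SE 0.28, adjusted p = 0.916).

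The 2 library batches gave different values. In batch 1 the family sum had 22.2 to 80.5 CPM in 9 LOF embryos (median 40.3) and 27.01 to 374 CPM in 7 CONTROL embryos (median 83.0). In batch 2 the ranges were 28.3 to 117 (median 50.6) in 7 LOF embryos and 21.8 to 110 (median 66.8) in 6 CONTROL embryos. Fitted apart, the log2 fold change was -1.64 (SE 0.41, adjusted p = 0.342) in batch 1 and -0.19 (SE 0.30, adjusted p = 0.990) in batch 2. The difference between the batches was 1.41 (SE 0.58, unadjusted p = 0.0206, adjusted p = 0.599 over all rows), and no gene passed the adjusted threshold for this difference in edgeR (0%, with 1494 genes at an unadjusted p under 0.05). Zscan4-ps2, Zscan4d, Zscan4f and Zscan4b had values above 0 in batch 2. The other copies lay below 0 in both batches. In batches 1 and 2 Zscan4-ps1 had -2.01 (SE 0.63, adjusted p = 0.428) and -1.64 (SE 0.72, adjusted p = 0.909). Zscan4-ps3 had -2.29 and -1.13, Zscan4c -1.63 and -0.66, Zscan4a -0.70 and -0.10, and Zscan4e -0.19 and -0.83. Without CONTROL embryo 3 of batch 1, the highest of the 47 embryos at 374 CPM, the log2 fold change of the family sum over both batches was -0.61. Without that embryo Zscan4d was at -0.31, Zscan4a at -0.24, Zscan4c at -0.68 in place of -1.19 and Zscan4-ps2 at -0.53 in place of -1.25.

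The construct also differed between the FOXJ3 groups. Its median was 351 CPM in LOF embryos (225 to 1882) and 839 CPM in CONTROL embryos (246 to 3162). With its log2 level as a covariate, the log2 fold change of the family sum was -0.67 (SE 0.37, unadjusted p = 0.0738, adjusted p = 1.000 in edgeR). Zscan4d was then at -0.22, Zscan4-ps2 at -0.59 and Zscan4c at -0.78, 3 copies in place of 5 had an unadjusted p under 0.05, and 8 of 9 copies lay below 0, the exception being Zscan4b with 0.27. In the TBP experiment the same covariate moved the family sum from -0.46 to -0.72 (SE 0.38, adjusted p = 0.148), and 3 copies were called, Zscan4-ps2 (-1.97, adjusted p = 0.0490) beside Zscan4-ps1 and Zscan4-ps3, with a construct median of 1390 CPM in LOF and 770 in CONTROL embryos.

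**Figure D4:**
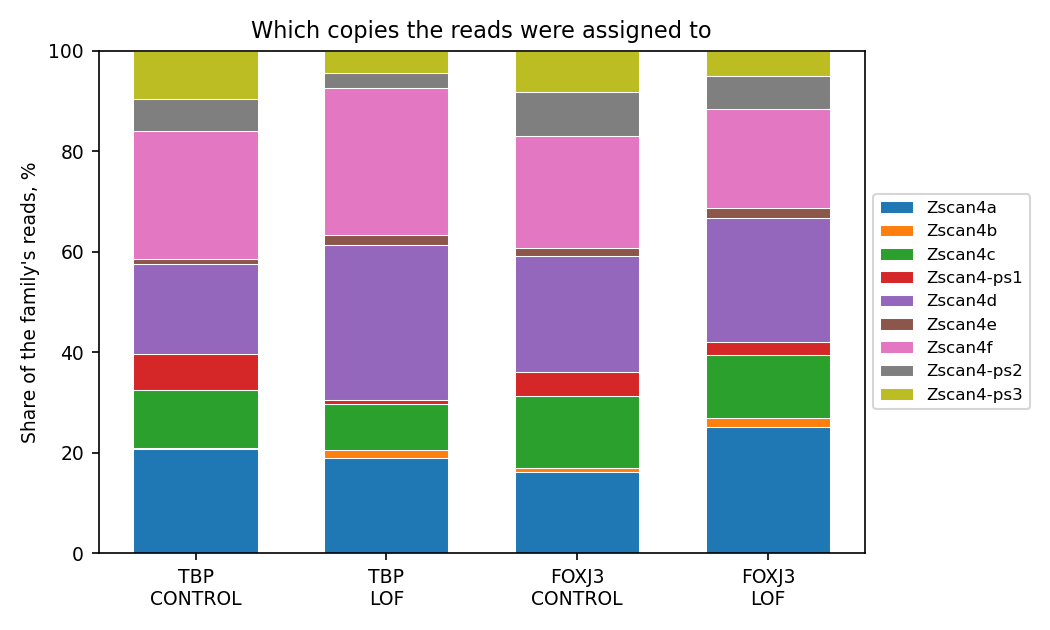
Share of the family's reads assigned to each copy, in percent of the reads summed over the embryos of a group. Zscan4-ps1 takes 7.22% in TBP CONTROL (4.52% without embryo 9) and 0.76% in TBP LOF embryos, and 4.76% in FOXJ3 CONTROL and 2.58% in FOXJ3 LOF embryos.

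Genes known to act upstream of Zscan4 or of the 2-cell programme were taken from lists. These lists, and those of partners and telomere genes below, were chosen with earlier results of these data known. Their counts are therefore descriptions. Of 9 known or proposed activators, 4 fell upon TBP LOF and none rose. Dppa2 had 88.0 ± 65.2 normalised counts in LOF and 436 ± 161 in CONTROL embryos (SD, n = 9 each). Its change on the log2 scale was -2.32 (SE 0.35, adjusted p = 5.28e-07), and Dppa4 had -2.20 (SE 0.33, adjusted p = 4.89e-07). Both bind chromatin as a pair and are known to act upstream of Dux and Zscan4. The others were Tbx3, a T-box factor linked to Zscan4 in stem cells (-1.66, SE 0.38, adjusted p = 4.31e-04), and Smad2 (-1.31, SE 0.43, adjusted p = 0.0143). With TMM these 4 changes kept their sign, from -1.55 to -0.48. Dux itself, listed as Duxf3, had 7 reads in all TBP embryos and could not be judged. Of 15 repressors known upstream of the 2-cell programme, which need not act on the Zscan4 locus itself, 11 fell upon TBP LOF and none rose. Chaf1b, a subunit of the chromatin assembly factor CAF-1, had -2.46 (SE 0.45, adjusted p = 1.43e-05), and Ncl, nucleolin, had -2.30 (adjusted p = 1.62e-07). The other 9 were Chaf1a (-1.0001), the histone methyltransferases Setdb1 (-1.16), Ehmt2 (-1.75) and Ehmt1 (-1.18), the corepressor Trim28 (-1.29), the Polycomb proteins Pcgf6 (-1.28) and Rybp (-0.92), and Smchd1 (-0.94) and Rif1 (-0.78). With TMM the 11 values ran from -1.62 to -0.04, those of Rif1 and Smchd1 (-0.10) being close to 0. The median of the repressors was -1.0001 and that of the activators -0.51, beside -0.70 for all genes, of which 29.8% were called lower, and with TMM they were -0.20, 0.26 and 0.13. In the FOXJ3 experiment 0 of 9 activators and 0 of 15 repressors passed, in edgeR or in DESeq2, with medians of -0.14 and 0.15 beside -0.03 for all genes. At an unadjusted p under 0.05 there were 0 activators in both tools, 1 repressor in edgeR (Chaf1b, -0.44) and 2 in DESeq2. The list members with the most reads had -0.40 (Obox5) and -0.14 (Dppa4) among activators and 0.21 each (Ncl and Rif1) among repressors.

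Partners of ZSCAN4 protein and telomere genes, on which the family is known to act in stem cells, were taken in the same way. Upon TBP LOF 3 of 6 partners fell, where 29.8% of all genes did: Dnmt1, the maintenance DNA methyltransferase (-1.27, adjusted p = 0.00181), Hdac1 (-0.82, adjusted p = 0.0258) and Rif1, which stands in both lists (-0.78, adjusted p = 0.0433). With TMM the last pair had 0.03 and -0.04, so that their direction relative to the bulk of genes is not set. Of 13 telomere genes 7 fell in edgeR and none rose (8 were called in DESeq2), with Pot1b at -2.90 (adjusted p = 5.02e-05) and Tert, the catalytic subunit of telomerase, at -2.04 (adjusted p = 0.0246). The other 5 were the shelterin genes Terf1 (-1.22), Tinf2 (-1.15) and Terf2ip (-1.04), Dkc1 (-0.9999), whose protein binds the telomerase RNA, and the helicase gene Blm (-1.0004). The shelterin gene Acd, named after its value was seen, had 0.67 (unadjusted p = 0.0435, adjusted p = 0.114 in edgeR) and 1.49 with TMM. Their medians were -0.65 and -1.0004 with spike-in scaling and 0.16 and -0.23 with TMM, beside -0.70 and 0.13 for all genes. Upon FOXJ3 LOF 0 of 6 partners and 0 of 13 telomere genes passed in edgeR or DESeq2, and 0 had an unadjusted p under 0.05 in either tool. Their medians were -0.00 and 0.12, and those with the most reads were Rif1 (0.21), Hdac1 (-0.17), Dkc1 (0.12) and Tinf2 (0.08).

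Some other genes of the 2-cell programme rose upon TBP LOF. Of 14 such genes tested, 4 rose and none fell, while 1.4% of all genes were called higher (258, against 2437 with TMM). The list was chosen with earlier results of these data known, so that its count is a description. Tcstv3 rose from 227 ± 163 to 773 ± 408 normalised counts (SD, n = 9 each; log2 fold change 1.77, SE 0.34, adjusted p = 4.13e-05), AF067061 by 2.26 (adjusted p = 2.72e-05), Gm8300 by 1.78 (adjusted p = 0.00229) and Usp17lc by 1.38 (adjusted p = 0.00515), all on the log2 scale. The median of the list was 0.56 with spike-in scaling and 1.34 with TMM, beside -0.46 and 0.16 for the Zscan4 sum. The difference between the family and these genes was not tested. Summed markers of the late 2-cell stage, 7 of 7 of which had reads, had 396 to 1026 CPM in TBP LOF embryos and 139 to 527 CPM in CONTROL embryos. For 11 oocyte markers the sums were 1867 to 3331 and 834 to 2405 CPM. CPM is a share of all counted reads and was not scaled to the spike-ins, with which the median of all genes was -0.70. A sum can rest on a few genes and may share genes with the list above, so that it is not separate evidence. The part of these markers in the Zscan4 values was not tested. Cumulus cell markers summed to at most 24.997 CPM in any embryo, with Inhba at 0 reads throughout. In the FOXJ3 experiment 0 of 15 of the 2-cell genes passed in edgeR or DESeq2 and 0 had an unadjusted p under 0.05 in either tool, 14 had a value below 0 (52.9% of all genes did), and the median was -0.20. Those with the most reads, Tmem92 and Zfp352, had -0.16 and -0.23. The summed markers had medians of 283 CPM in FOXJ3 LOF and 332 CPM in FOXJ3 CONTROL embryos for the late 2-cell stage. For oocyte markers the medians were 1714 and 2029 CPM, and for blastocyst markers 65.9 and 80.6 CPM.

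Other Zscan genes share the SCAN domain but lie outside the cluster. The annotation holds 12 of them. Of 8 tested in the TBP experiment, 5 fell in edgeR and none rose, while 29.8% of all genes fell, and DESeq2 called 4. Zscan5b had 357 ± 187 normalised counts in LOF and 647 ± 160 in CONTROL embryos (-0.86, SE 0.30, adjusted p = 0.0229), Zscan21 had -1.37 (adjusted p = 0.00166), Zscan12 -2.01 (adjusted p = 0.00552) and Zscan26 -3.05 (adjusted p = 5.21e-04). Zscan22 had 1 read in LOF and 17 in CONTROL embryos, a ratio of 0.066 per counted read (exact 95% interval 0.0016 to 0.42, counting error only; adjusted p = 0.0205). It had a read in 1 of 9 LOF and 5 of 9 CONTROL embryos. Zscan22 thus reached the share of embryos with a read needed for a test mostly through CONTROL embryos, where it is high. Its call and its place among the 5 are therefore descriptions. With TMM the 5 lay below 0, Zscan5b close to it at -0.04. The median of the 8 was -1.27, and -0.47 with TMM, beside -0.70 and 0.13 for all genes. Upon FOXJ3 LOF 0 of 11 tested passed in edgeR or DESeq2 and 1 had an unadjusted p under 0.05 in each tool (Zscan10 in edgeR, -1.02). The median was 0.05, and Zscan5b and Zscan21, with the most reads, had 0.09 and -0.21.

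Few of the genes around the copies could be tested. The cluster and 250 kb on either side hold 68 other genes, among them 12 vomeronasal receptor genes and pseudogenes, of which 10 had enough reads for a test in the TBP experiment and 12 in the FOXJ3 experiment, and 35 and 31 of the 68 had 0 reads. Gm26248, annotated as a miRNA gene between Zscan4d and Zscan4e (chromosome 7, 11303218 to 11303338), was the only one past the threshold, upon TBP LOF, where 0 of 10 neighbours were called lower and 1 higher, beside 29.8% and 1.4% of all genes. It had 21 reads in 5 of 9 TBP LOF embryos and 0 reads in 9 CONTROL embryos, which is at least 5.81-fold higher per counted read by the exact 95% bound, counting error only, and 7.81-fold with the CONTROL group set at 3 reads (adjusted p = 0.00598). Gm26248 reached the 25% of embryos with a read needed for a test through LOF embryos alone, where it is high. Its call and its place in the count of neighbours are therefore descriptions. In the FOXJ3 experiment Gm26248 had 25 reads and the opposite sign, -1.48 (SE 0.69, adjusted p = 0.861), with 11 of the 16 LOF embryos under the median CONTROL embryo. Nlrp4b, a gene with reads in both experiments, had 0.59 (SE 0.45, adjusted p = 0.364) upon TBP LOF and -0.17 upon FOXJ3 LOF. Gm7789 had -1.02 (SE 0.42, adjusted p = 0.0596) and -1.03 (SE 0.27, adjusted p = 0.343). No neighbour passed upon FOXJ3 LOF in edgeR or DESeq2, and 3 of 12 in edgeR, beside 5.69% of all genes, and 1 in DESeq2 had an unadjusted p under 0.05. The medians of the neighbours were -0.60 (0.38 with TMM) and -0.32, beside -0.70 (0.13) and -0.03 for all genes.

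Some genes followed the family from embryo to embryo. Likeness was Pearson's r of log2(CPM + 1) after the mean of each group and batch had been taken out, over 47 embryos and 6874 genes with at least 10 CPM on average, whose median r was -0.04 and of which 125 had an r over 0.5. The 8 genes with the highest r were Gm13078 (0.82), Pramef6 (0.77), BB287469 (0.77), Gm11756 (0.76), Usp17lc (0.72), Gm5662 (0.71), Gm21761 (0.71) and AF067061 (0.70). Gm13078, Pramef6 and Gm11756 lie on chromosome 4, AF067061 and Gm21761 on chromosome 13, and BB287469 and Gm5662 on chromosome 12. Usp17lc is the only one of the 8 on chromosome 7, at 103415072 to 103419880, away from the cluster. Of the 8, 4 were among the highest 8 in the 18 TBP embryos alone and 5 in the 29 FOXJ3 embryos alone, but only Gm13078 in both. Gm5662 and AF067061 ranked 116 and 172 in TBP embryos. MT2_Mm, the promoter repeat of the MERVL retrotransposon that drives many 2-cell transcripts, had r = 0.69 (0.63 in TBP and 0.75 in FOXJ3 embryos), and MERVL-int, its internal part, had 0.40 (0.39 and 0.42). These points share library and depth, and r is given without a test.

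**Figure D5:**
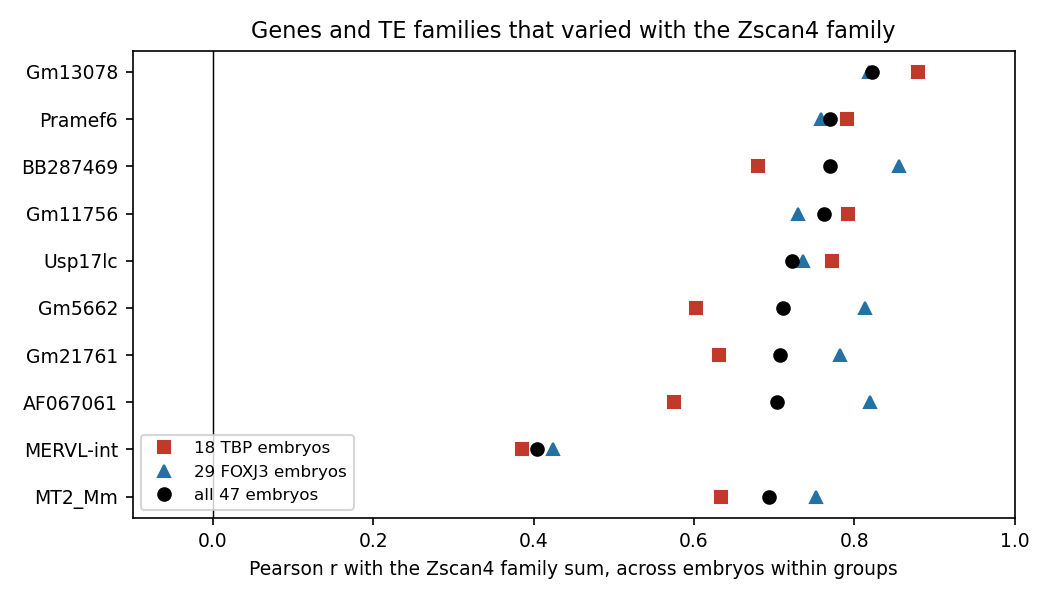
Pearson r with the Zscan4 family sum, over embryos and within groups and batches, for the 8 genes with the highest r and for 2 TE families. Circles are all 47 embryos, squares the 18 TBP embryos and triangles the 29 FOXJ3 embryos. Gm13078 reaches 0.88 in TBP embryos, and MERVL-int lies lowest, near 0.40.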

How the data were processed

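Gene expression had been measured with Smart-seq+5′ in 49 single late 2-cell embryos. The authors trimmed reads with Trimmomatic, aligned 5′ reads with STAR 2.7.11a to GRCm38 with the construct added, and deposited TEcount tables of estimated counts per gene and TE family, which held whole numbers. The sources used here do not state the multi-mapper mode or strand setting. Embryos needed at least 500000 reads, 1000 genes, under 10% mitochondrial and 15% ERCC reads, which removed 1 TBP CONTROL and 1 FOXJ3 LOF embryo. Passing embryos had 1103569 to 5434808 reads, which limits copies with few reads. Symbols and positions came from the GRCm38 gencode annotation. Rows with a read in at least 25% of embryos were tested with edgeR 4.0.16 (quasi-likelihood, R 4.3.3), Benjamini-Hochberg adjusted over all rows at 0.05. TBP embryos were scaled by median of ratios over 42 ERCC RNAs, FOXJ3 embryos by TMM with batch as covariate. The family sum was fitted as 1 row in place of its 9 copies. Alternatives included DESeq2 1.42.0, other scalings and filters, left-out embryos, the construct as covariate and the replicate number as a block. Methods were tested on simulated data with changes planted only in rows above a set mean count. Copies with few reads, among them Zscan4-ps1 in the TBP experiment, lay below it and were not covered. Intervals of ratios of reads are exact 95% intervals and cover counting error only. Per the study's methods the embryos came from several independent experiments. The labels tie neither TBP nor FOXJ3 embryos to these, so that p-values measure the spread between embryos and experiment could not be fitted. The batch covariate of the FOXJ3 fits is the library batch. The methods and the labels differ by 1 embryo in the size of the TBP groups, and the labels were used.

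All Zscan4 copies are named, with members of each list that passed and otherwise the 2 with the most reads, and the 8 genes most like the family. Members and lists were chosen with earlier results of these data known. Of the copies, 7 had been named beforehand, and the rule on symbols added Zscan4-ps2 and Zscan4-ps3. Zscan10 was named after its value was seen. Same-numbered embryos did not deviate together in every pair: r of their deviations exceeded 0.1 in 2 of 7 TBP and 3 of 12 FOXJ3 pairs, the latter all in batch 2, so that the numbers were not taken to pair embryos.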

Additional observations from a re-analysis of the deposited data

Results flagged for a closer look

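Of 60 sets of embryos tested with Dixon's test (the 9 copies and their sum in the TBP groups and in each batch of the FOXJ3 groups), 12 held an embryo far from the rest, where chance gives about 1 in 20 for normally distributed values. These values are skewed and partly rest on few reads, so that the count is not read against that share, and the set of Zscan4b in TBP CONTROL embryos, 8 of them at 0, passes by construction. The copies of an embryo share its library, so that these are not separate events. In CPM, FOXJ3 CONTROL embryo 3 of batch 1 stood apart for Zscan4d (107), Zscan4c (65.0) and Zscan4-ps2 (55.5). FOXJ3 LOF embryo 5 of batch 1 stood apart for Zscan4d (28.2) and Zscan4f (19.5), and embryo 6 of that group for Zscan4c (21.5). Zscan4-ps3 was high in FOXJ3 LOF embryo 9 of batch 1 (6.89). In batch 2, Zscan4-ps1 was high in FOXJ3 LOF embryo 9 (5.80) and Zscan4b in FOXJ3 LOF embryo 5 (5.54). Of the TBP embryos, CONTROL embryo 2 was high for Zscan4c (35.3, from 58 reads), without which the TBP log2 fold change of Zscan4c was -0.51 in place of -1.24, LOF embryo 8 for Zscan4e (4.73, from 7 reads) and CONTROL embryo 9 for Zscan4b (0.552, from 3 reads, where the other 8 had 0). The part of injection, library or embryo in these values was not tested.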

How the results depend on the processing

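The log2 fold change of the family sum upon TBP LOF was 0.16 with TMM and 0.20 with median-of-ratios scaling, against -0.46 with spike-ins, since these scalings place the bulk of genes near 0. The same scalings gave 0.017 and 0.065 for Zscan4a and 0.44 and 0.48 for Zscan4f. The construct covariate gave -0.043 for Zscan4d and -0.77 for Zscan4e, and in the FOXJ3 experiment 0.27 for Zscan4b. FOXJ3 batch 2 alone gave 0.75 for Zscan4-ps2, 0.39 for Zscan4b, 0.18 for Zscan4d and 0.024 for Zscan4f. Spike-in scaling of the FOXJ3 embryos gave -0.77 for the family sum (adjusted p = 0.963 in edgeR), against -0.99 with TMM. It gave -0.14 for Zscan4a and -1.50 for Zscan4-ps1. All 9 copies stayed below 0 and 0 were called, while the median of all genes was 0.15 in place of -0.03. The number of copies called upon TBP LOF (2) was 0 with filterByExpr, under which 3 copies were tested, 1 without a filter or with all embryos, and 3 with the construct covariate. The number of genes called upon FOXJ3 LOF (2) was 1 with filterByExpr, 4 without a filter, and 0 with the construct covariate and in batch 1 or batch 2 alone. The causes were not tested. Of the 8 genes most like the family, 4 and 5 were among the highest 8 in TBP and FOXJ3 embryos apart. Insertion-level tables held the same values.

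Leaving out 1 embryo at a time gave -0.86 to -0.19 for the TBP family sum, 1 to 3 copies and 5187 to 5861 genes called, and -1.12 to -0.61 for the FOXJ3 family sum, 0 copies and 1 to 4 genes called. Upon TBP LOF the ranges were -0.13 to 0.33 for Zscan4d, -0.91 to 0.49 for Zscan4e and -0.57 to 0.14 for Zscan4f, with the lowest values without TBP LOF embryo 8. The pooled share of Zscan4-ps1 without CONTROL embryo 9 (4.52%) was chosen after seeing the data.

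With the embryo number as a replicate block, in embryos whose number both groups share, the family sum was -0.26 (TBP) and -0.76 (FOXJ3) and Zscan4e -0.27 upon TBP LOF. The block called 1 copy and 4770 genes for TBP and 0 genes for FOXJ3, and the same embryos without the block, an alternative chosen after seeing the data, 1 copy, 4716 and 0 genes.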
